A study of Mus musculus with 29 samples.

Results

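Ovaries of mice that lack p27Kip1 were compared with wild-type ovaries at embryonic day 18.5 (E18.5), the last days before birth, across all measured genes. The samples were those titled as E18.5 ovary cells, 8 of the 29 in the series, with 4 of genotype Cdkn1b -/- (p27null) and 4 of genotype Cdkn1b +/+ (WT). The series also holds both genotypes at E13.5, PND8 and 12 weeks of age, and its stated question is the part that cell cycle control plays as the ovary develops. Ovaries were dissociated with papain, total RNA was taken from the cells with the RNeasy Plus Micro kit, and the RNA was sequenced in bulk. The genotype is labelled as -/- for the animal, with no cell type-specific driver named. The labels name no strain, litter, pool size or animal for a library, so p-values measure the spread between these libraries, which may be partly technical. In bulk RNA, fewer cells of a type and less RNA per cell cannot be told apart.

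p27Kip1 is an inhibitor of cyclin-dependent kinases that holds cells out of the division cycle, and in the ovary it is known from pregranulosa cells, the flat supporting cells around resting oocytes. Late in gestation the female germ cells are in meiotic prophase inside clusters, and the first primordial follicles form as the clusters break apart. Granulosa cells of growing follicles later make inhibin, activin and oestradiol, while theca and interstitial cells supply androgens, and mesenchymal stroma fills the space between.

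The libraries held 17.3 to 20.9 M expected counts in WT and 17.6 to 22.8 M in p27null ovaries, so that 3 counts, the smallest level taken as measurable, corresponded to 0.132 to 0.171 CPM (counts scaled to library size, the unit of all levels below). Haemoglobin genes separated replicates 1 and 3 from replicates 2 and 4 in both genotypes. They took 2.70% and 3.59% of the counts in WT replicates 1 and 3 against 0.738% and 0.18% in replicates 2 and 4, and 2.62% and 1.35% against 0.194% and 0.172% in the p27null replicates. Nobox, a transcription factor of oocytes in early follicles, measured 6.51, 45.8, 8.82 and 23.4 CPM in the 4 WT libraries and 3.17, 23.3, 19.6 and 12.7 CPM in the 4 p27null libraries, highest in replicates 2 and 4 in WT and in replicates 2 and 3 in p27null ovaries. Cdh16 and Spp1, taken as mesonephric tubule genes, were high in p27null replicate 1, where Cdh16 measured 22.45 CPM and Spp1 101 CPM against at most 2.29 and 11.4 CPM in the other 7 libraries. The ovarian identity of the libraries showed in the granulosa regulator Foxl2 (30.2 to 69.7 CPM in WT and 35.8 to 50.6 CPM in p27null libraries) and the germ cell helicase Ddx4 (36.7 to 59.8 CPM in WT and 26.6 to 42.3 CPM in p27null libraries), while the Y-linked genes Ddx3y, Uty and Eif2s3y were at 0 in all 8 libraries.

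The targeted gene was examined first. Cdkn1b on chromosome 6 measured 136, 107, 106 and 107 CPM in the 4 WT libraries and 10.4, 16.98, 12.6 and 15.1 CPM in the 4 p27null libraries (log2 fold change -3.06, SE 0.163, edgeR quasi-likelihood adjusted p 1.12e-05). The groups did not overlap, and a low level of reads remained in every p27null library. Of the other 6 tested genes that lie within 100 kb, 2 were lower in p27null ovaries. Crebl2, which encodes a bZIP protein and ends 61.5 kb before Cdkn1b starts, measured 7.88, 7.69, 8.88 and 9.60 CPM in the 4 WT libraries and 4.00, 5.22, 3.18 and 3.71 CPM in the 4 p27null libraries (log2 fold change -1.08, SE 0.21, edgeR quasi-likelihood adjusted p 0.0159). Apold1, an endothelial early response gene that starts 56.2 kb after the end of Cdkn1b, measured 12.4, 13.2, 8.77 and 8.54 CPM in the 4 WT libraries and 1.98, 4.43, 4.12 and 5.23 CPM in the 4 p27null libraries (log2 fold change -1.45, SE 0.293, edgeR quasi-likelihood adjusted p 0.0184). Neither pair of groups overlapped. Apold1 was not called without p27null replicate 3 (adjusted p 0.073), and Crebl2 was not called without WT replicate 4, p27null replicate 3 or p27null replicate 4 (edgeR quasi-likelihood adjusted p 0.0524, 0.0711 and 0.0647). Within 1 Mb, 2 of 19 genes were called, and within 10 Mb 7 of 122 (5.74%).

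Across the genome, 814 of 16322 genes tested differed between the genotypes (4.99%, called at an edgeR quasi-likelihood p under 0.05 after Benjamini-Hochberg adjustment), 542 of them higher (3.32%) and 272 lower (1.67%) in p27null ovaries. The groups did not overlap for 2359 genes (14.5%). An unadjusted edgeR quasi-likelihood p under 0.05 was found for 3615 genes (22.1%), the share to set beside such counts below. Of the called genes, 238 had a log2 fold change of 1 or more in size (1.46% of those tested). The median log2 fold change was 0.70 among the higher genes and 0.87 in size among the lower genes, and it was -0.04 over all genes tested. DNA replication genes rose in 27 of 33 cases and mitosis genes in 24 of 29, with Cdc20, the activator of the anaphase-promoting complex, at 40.1 to 51.9 CPM in WT and 126 to 148 CPM in p27null libraries. The replication, mitosis, recombination, kinesin, centromere and histone lists together held 81 of the 542 higher genes and none of the 272 lower ones, which left 461 higher genes outside them. These lists do not hold every division cycle gene: Racgap1 and Cep55, both called higher, are in none of them. The number of calls depended on single libraries. It was 246 without p27null replicate 3, 294 without p27null replicate 4, 375 and 420 without WT replicates 4 and 3, 434 and 518 without p27null replicates 2 and 1, and 1372 without WT replicate 2. Of 124 genes examined one by one, 91 were called, and 41 of them were called in all 8 of these fits. With all 29 samples in 1 fit 53 of the 91 were called, and Cyp19a1, Astn1, Hmgcs1, Rbp4, Malat1 and Xist were among those lost (edgeR quasi-likelihood adjusted p 0.0567, 0.0508, 0.355, 0.319, 0.165 and 0.519).

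Outside the division cycle, the genes with the largest fold rises were Cyp19a1, H2-Q10, Hsd17b1, Slfn9, Tnni3, Astn1, Dlgap2 and Sprr2f. The calls of Dlgap2 and Sprr2f rested on low levels and were lost in most fits that left out a library, for example without p27null replicate 3 (edgeR quasi-likelihood adjusted p 0.166 and 0.131). Tnni3, the cardiac form of the inhibitory troponin subunit, measured 16.2, 16.7, 19.6 and 17.96 CPM in the 4 WT libraries and 61.9, 64.6, 59.6 and 75.2 CPM in the 4 p27null libraries (log2 fold change 1.89, SE 0.119, edgeR quasi-likelihood adjusted p 3.29e-05). Slfn9, of the schlafen family, measured 19.2, 12.1, 10.3 and 11.2 CPM in the 4 WT libraries and 46.03, 47.2, 59.02 and 54.7 CPM in the 4 p27null libraries (log2 fold change 1.97, SE 0.193, edgeR quasi-likelihood adjusted p 0.000772). The lowest p27null library was above the highest WT library for both genes. Of the families they belong to, 1 of 6 tested schlafen genes was called (16.7%, against 3.32% of all genes called higher). Troponin and sarcomere genes formed a list drawn up after values had been seen. Of its 17 tested genes 2 were called higher (11.8%, against 3.32% of all genes), Tnni3 and the myosin-binding protein gene Mybpc3 (2.20 to 3.28 CPM in WT and 4.15 to 5.83 CPM in p27null libraries). The Mybpc3 call was lost in the fit blocked on replicate number (edgeR quasi-likelihood adjusted p 0.0603) and without any 1 of WT replicates 1, 3 and 4 or any p27null replicate (0.0594 to 0.153). H2-Q10, a class Ib histocompatibility gene, measured 1.71, 1.47, 2.21 and 0.689 CPM in the 4 WT libraries and 9.64, 8.12, 6.09 and 5.91 CPM in the 4 p27null libraries (log2 fold change 2.29, SE 0.34, edgeR quasi-likelihood adjusted p 0.00391). Every p27null library was above every WT library. It was the only one of 10 tested class I genes called (10%, against 3.32% of all genes called higher). The near-identical copies of this family make the division of reads among them uncertain. Astn1, a neuronal adhesion gene, measured 3.77, 1.64, 1.72 and 1.88 CPM in the 4 WT libraries and 7.09, 9.60, 8.18 and 8.26 CPM in the 4 p27null libraries (log2 fold change 1.88, SE 0.291, edgeR quasi-likelihood adjusted p 0.00492), and WT replicate 1 was the highest WT library and still below all p27null libraries.

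**Figure D1:**
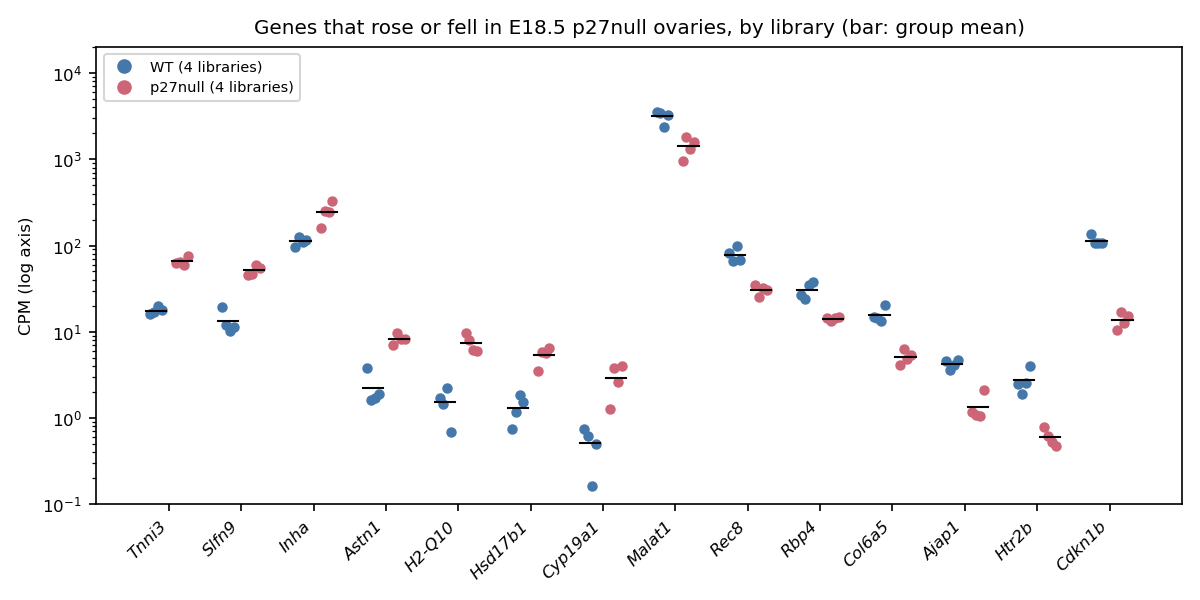
CPM on a log axis for 14 genes in each of the 4 WT and 4 p27null libraries at E18.5, with a bar at each group mean. The 7 genes at the left were higher and the 7 at the right lower in p27null ovaries, and for none of the 14 did the groups overlap.

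The steepest falls after Cdkn1b were in Htr2b, Lgals4, Rhox2c, Ajap1, Neat1, Col6a5, Abca8a, Gabbr1, Snhg20, Apold1 and Nxph3. Htr2b, a serotonin receptor gene, measured 2.51, 1.92, 2.53 and 4.04 CPM in the 4 WT libraries and 0.792, 0.625, 0.521 and 0.471 CPM in the 4 p27null libraries (log2 fold change -2.18, SE 0.349, edgeR quasi-likelihood adjusted p 0.0059). Abca8a, a lipid transporter gene, measured 4.40, 3.96, 4.20 and 4.87 CPM in the 4 WT libraries and 1.54, 0.965, 1.61 and 1.83 CPM in the 4 p27null libraries (log2 fold change -1.54, SE 0.267, edgeR quasi-likelihood adjusted p 0.00891). Both were low-level transcripts in either genotype, and in both the groups were separate. Gabbr1, a subunit of the GABA-B receptor, measured 7.71, 3.90, 6.56 and 7.12 CPM in the 4 WT libraries and 3.26, 2.04, 2.03 and 1.62 CPM in the 4 p27null libraries (log2 fold change -1.49, SE 0.297, edgeR quasi-likelihood adjusted p 0.0176). The groups were separate here too, but the call was lost without WT replicate 4 or any 1 of p27null replicates 2, 3 and 4 (edgeR quasi-likelihood adjusted p 0.0532 to 0.0772). The calls of Lgals4, Neat1, Snhg20 and Nxph3 were each lost in 5 or more of the 8 such fits, among them those without WT replicate 3 or 4 and without p27null replicate 2, 3 or 4. Rhox2c belongs to a cluster of similar homeobox genes, so its 2.46 to 2.71 CPM in WT and 0.312 to 1.02 CPM in p27null libraries may include shared reads. Its call was lost without WT replicate 4 (adjusted p 0.0529), and that of the adhesion gene Ajap1 without p27null replicate 3 (adjusted p 0.0528). Ccnd2, a D-type cyclin of granulosa cells and a gene chosen here after its values were seen, measured 793, 988, 991 and 1001 CPM in the 4 WT libraries and 517, 489, 529.6 and 590.1 CPM in the 4 p27null libraries (log2 fold change -0.83, SE 0.108, edgeR quasi-likelihood adjusted p 0.00227), with no overlap.

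Some genes of the granulosa cells of growing follicles were higher in p27null ovaries, and no member of the pregranulosa list was called in the main comparison. Of 13 tested genes in the growing follicle list, 4 rose (30.8%, against 3.32% of all genes), none fell, 9 were not called, and the list median was 0.34. Inha, the shared subunit of the inhibins, measured 95.04, 126, 109 and 116 CPM in the 4 WT libraries and 159, 253, 242 and 329 CPM in the 4 p27null libraries (log2 fold change 1.14, SE 0.188, edgeR quasi-likelihood adjusted p 0.00795). Hsd17b1, which reduces oestrone to oestradiol, measured 0.743, 1.19, 1.83 and 1.51 CPM in the 4 WT libraries and 3.52, 5.91, 5.73 and 6.48 CPM in the 4 p27null libraries (log2 fold change 2.03, SE 0.324, edgeR quasi-likelihood adjusted p 0.0059). Cyp19a1, the aromatase that makes oestrogens from androgens, measured 0.743, 0.622, 0.161 and 0.505 CPM in the 4 WT libraries and 1.28, 3.81, 2.60 and 3.97 CPM in the 4 p27null libraries (log2 fold change 2.51, SE 0.489, edgeR quasi-likelihood adjusted p 0.016). In all 3 genes every p27null library exceeded every WT library, although Cyp19a1 and Hsd17b1 were present at only a few CPM. The fourth gene, Ivns1abp, measured 332 to 439.9 CPM in WT and 482 to 578 CPM in p27null libraries (log2 fold change 0.49). The summed level of the list was 1128 to 1456 CPM in WT and 1691 to 1938 CPM in p27null libraries, without overlap. Amh, the hormone gene of small growing follicles, was at 0.622 to 1.51 CPM in WT and 0.572 to 1.25 CPM in p27null libraries (log2 fold change -0.15, edgeR quasi-likelihood adjusted p 0.854). Without WT replicate 4, p27null replicate 3 or p27null replicate 4, 2 members of the list were called, Inha and Hsd17b1. Ivns1abp was also lost without WT replicate 3 or p27null replicate 1 or 2 (edgeR quasi-likelihood adjusted p 0.0628, 0.0638 and 0.0808).

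The 22 pregranulosa genes had a median of 0.01, with 0 called by edgeR, 7 at an unadjusted p under 0.05, 1 called by DESeq2 and 0 by limma-voom. Over all genes tested, edgeR called 4.99%, and 22.1% had an unadjusted p under 0.05. Foxl2 measured 30.2, 69.7, 42.9 and 65.9 CPM in the 4 WT libraries and 35.8, 50.6, 41.4 and 40.1 CPM in the 4 p27null libraries (log2 fold change -0.31, SE 0.239, edgeR quasi-likelihood adjusted p 0.474). Wnt4, a signal needed for female development, measured 47.8, 79.1, 49.3 and 79.1 CPM in the 4 WT libraries and 35.9, 52.6, 38.9 and 52.9 CPM in the 4 p27null libraries (log2 fold change -0.50). The groups overlapped for both. Replicates 2 and 4 were above replicates 1 and 3 in both genotypes for Wnt4 and in WT for Foxl2. Fst, the activin-binding follistatin, was at 203 to 253 CPM in WT and 172 to 249 CPM in p27null libraries. Wnt4 was not called in the main comparison (edgeR quasi-likelihood adjusted p 0.176) and was called lower in the fit blocked on replicate number (adjusted p 0.0283). None of 25 genes of the Kit, phosphoinositide 3-kinase and Foxo3 pathway, which controls the activation of resting oocytes, was called by edgeR (median -0.12), 4 had an unadjusted p under 0.05, and DESeq2 called 0 and limma-voom 2. Kitl, its granulosa-derived ligand, measured 1193, 775, 1049 and 771 CPM in the 4 WT libraries and 1096, 1202, 1274 and 1256 CPM in the 4 p27null libraries (log2 fold change 0.35, edgeR quasi-likelihood adjusted p 0.189), and the groups overlapped because WT replicate 1 exceeded p27null replicate 1.

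Among 13 tested steroidogenic genes, 3 rose (23.1%, against 3.32% of all genes) and none fell, and the summed level was 610.4 to 849 CPM in WT and 1017 to 1173 CPM in p27null libraries, without overlap. Hsd3b1, which converts pregnenolone to progesterone, measured 252, 218, 196 and 126 CPM in the 4 WT libraries and 278, 364, 310.0 and 377 CPM in the 4 p27null libraries (log2 fold change 0.75, SE 0.189, edgeR quasi-likelihood adjusted p 0.0478). Akr1c14, a hydroxysteroid reductase, measured 274, 235, 323 and 194 CPM in the 4 WT libraries and 406, 382, 439 and 417 CPM in the 4 p27null libraries (log2 fold change 0.68, SE 0.141, edgeR quasi-likelihood adjusted p 0.0204). The groups did not overlap for either gene. Hsd17b7, which acts both on oestrone and in cholesterol synthesis, was at 23.4 to 28.4 CPM in WT and 30.1 to 44.8 CPM in p27null libraries (log2 fold change 0.59). The entry steps of the pathway were not called, with the cholesterol carrier Star at 10.1 to 28.8 CPM in WT and 10.3 to 18.3 CPM in p27null libraries, the side-chain cleavage enzyme Cyp11a1 at 5.65 to 14.1 CPM in WT and 8.96 to 11.3 CPM in p27null libraries and the androgen-forming Cyp17a1 at 2.02 to 3.37 CPM in WT and 3.04 to 3.59 CPM in p27null libraries. The Hsd3b1 call was lost in the fit blocked on replicate number (edgeR quasi-likelihood adjusted p 0.0897), and no member was called without p27null replicate 3 or p27null replicate 4. Without WT replicate 3, WT replicate 4 or p27null replicate 2, 1 member was called, and 0 were called with all 29 samples in 1 fit. DESeq2 and limma-voom each called 5 members higher.

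Cholesterol synthesis was the metabolic pathway with the most called members. Cells make cholesterol from acetyl-CoA through mevalonate, isoprenoids, squalene and lanosterol, and transcription factors of the SREBP family switch the genes on when sterols run low. Of 25 genes in the list, 13 rose (52%, against 3.32% of all genes) and none fell, and the log2 fold changes of all 25 were above 0, with a median of 0.55. The called genes included Acat2 and Hmgcs1 at the start of the pathway, Idi1 and Fdps of the isoprenoid steps, Fdft1 and Sqle of the squalene steps, Cyp51, Msmo1, Hsd17b7 and Dhcr7 of the sterol steps, and Stard4, a sterol carrier. Summed over the list, the level was 974 to 1171 CPM in WT and 1529 to 1866 CPM in p27null libraries.

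**Figure D2:**
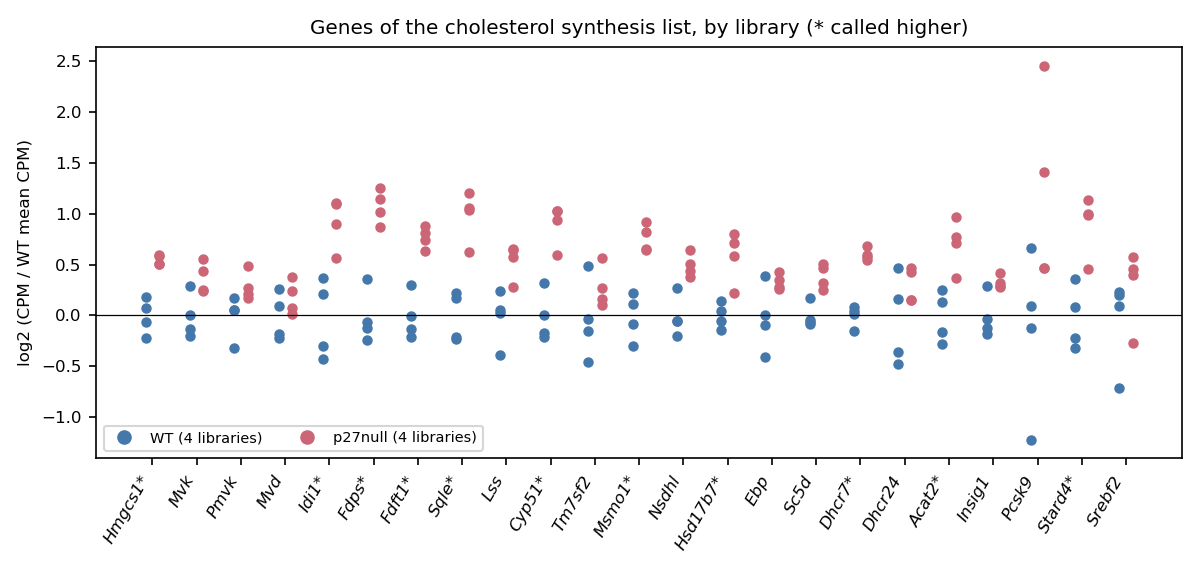
Genes of the cholesterol list, 23 of the 25, in pathway order, each library drawn as the log2 ratio of its CPM to the WT mean of that gene, with called genes starred. For the 11 starred genes the p27null points lie above all WT points, and Srebf2, at the right end, overlaps.

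At the start of the pathway, Hmgcs1 measured 288, 244, 267 and 219 CPM in the 4 WT libraries and 384, 360.5, 362 and 382 CPM in the 4 p27null libraries (log2 fold change 0.55, SE 0.1, edgeR quasi-likelihood adjusted p 0.0116). The groups did not overlap. Fdps, the farnesyl diphosphate synthase, measured 59.9, 83.5, 62.7 and 55.3 CPM in the 4 WT libraries and 132, 119, 144 and 156 CPM in the 4 p27null libraries (log2 fold change 1.08, SE 0.14, edgeR quasi-likelihood adjusted p 0.00227). Sqle, the squalene epoxidase, measured 88.9, 64.9, 85.8 and 65.99 CPM in the 4 WT libraries and 159, 118, 157 and 176 CPM in the 4 p27null libraries (log2 fold change 1.00, SE 0.149, edgeR quasi-likelihood adjusted p 0.00422). For both genes p27null replicate 2 was the lowest p27null library and still above all WT libraries. Cyp51, the lanosterol demethylase, measured 43.1, 38.3, 53.6 and 37.1 CPM in the 4 WT libraries and 87.8, 64.9, 82.5 and 87.8 CPM in the 4 p27null libraries (log2 fold change 0.91, SE 0.143, edgeR quasi-likelihood adjusted p 0.0053). The other called genes named above had log2 fold changes of 0.59 to 0.93. Srebf2, the transcription factor gene of the pathway, measured 40.1, 23.01, 44.4 and 43.4 CPM in the 4 WT libraries and 51.9, 31.3, 56.0 and 49.6 CPM in the 4 p27null libraries (log2 fold change 0.32, edgeR quasi-likelihood adjusted p 0.432), with overlapping groups. The number of called genes fell to 8 without p27null replicate 3, to 8 without p27null replicate 4, and to 7 when all 29 samples were fitted together. Idi1, Acat2, Stard4 and Hsd17b7 were among the genes lost without either of those libraries.

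Promoters of the pathway are known to carry CCAAT boxes, the binding motif of NF-Y, a factor that acts together with SREBP. The 250 bases before the start of 4 called genes are shown because the data show these genes moving together, from RefSeq on GRCm38.p6, 5′ to 3′ on the gene's strand, with CCAAT or its reverse complement ATTGG in capitals.
Hmgcs1, chr13:119690101-119690350, plus strand: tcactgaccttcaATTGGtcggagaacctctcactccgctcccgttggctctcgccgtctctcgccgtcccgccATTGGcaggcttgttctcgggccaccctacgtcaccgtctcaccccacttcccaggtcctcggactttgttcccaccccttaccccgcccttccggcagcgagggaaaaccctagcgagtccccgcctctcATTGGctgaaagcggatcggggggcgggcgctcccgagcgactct
Idi1, chr13:8885356-8885605, plus strand: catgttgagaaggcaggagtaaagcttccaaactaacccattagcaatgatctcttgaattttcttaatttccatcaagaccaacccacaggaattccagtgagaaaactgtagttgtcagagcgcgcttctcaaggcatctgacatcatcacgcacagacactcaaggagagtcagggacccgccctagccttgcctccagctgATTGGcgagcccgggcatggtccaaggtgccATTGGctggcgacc
Cyp51, chr5:4104698-4104947, minus strand: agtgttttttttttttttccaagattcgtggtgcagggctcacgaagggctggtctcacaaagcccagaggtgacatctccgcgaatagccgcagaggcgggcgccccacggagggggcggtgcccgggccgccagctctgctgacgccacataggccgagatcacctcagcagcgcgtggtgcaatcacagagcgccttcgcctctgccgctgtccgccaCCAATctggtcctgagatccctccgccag
Msmo1, chr8:64733579-64733828, minus strand: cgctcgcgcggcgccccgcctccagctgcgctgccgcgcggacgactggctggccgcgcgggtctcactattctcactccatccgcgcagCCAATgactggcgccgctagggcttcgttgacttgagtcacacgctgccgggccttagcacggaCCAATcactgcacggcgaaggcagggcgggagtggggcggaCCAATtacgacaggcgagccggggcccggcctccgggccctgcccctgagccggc

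Copies lie 237, 176 and 45 bases before the start in Hmgcs1, 45 and 14 bases before it in Idi1, 29 bases before it in Cyp51 and 160, 96 and 55 bases before it in Msmo1. With both strands searched, CCAAT was found in the promoters of 16 of the 17 list genes with an entry in the table (94.1%), against 40.4% of the 11756 tested genes with an entry. It was found for 57.0% of the 409 higher genes and 44.5% of the 182 lower genes with an entry. The letters TCACNCCAC, one form of the sterol regulatory element, were found in 1.21% of the tested genes and in the list for Hmgcs1 alone. The cell cycle homology region, TTTGAA, was found for 22.0% of the higher, 9.34% of the lower and 12.9% of all tested genes. An E2F motif, TTTCCCGC or TTTGGCGC, was found for 5.87%, 1.65% and 2.79%. The E-box CACGTG was found for 8.80%, 8.79% and 9.51%. These shares describe letters in a window, and no test was made of them.

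Some genes of one-carbon and nucleotide metabolism also rose. Of 17 tested genes of the amino acid and one-carbon list, 5 rose (29.4%, against 3.32% of all genes) and none fell, while 6 had a log2 fold change below 0 and the list median was 0.11. The summed level of the list was 494 to 710.4 CPM in WT and 645.8 to 871 CPM in p27null libraries, with overlap. Shmt1, the cytosolic serine hydroxymethyltransferase, measured 26.4, 25.7, 24.7 and 24.02 CPM in the 4 WT libraries and 49.7, 46.4, 52.2 and 57.1 CPM in the 4 p27null libraries (log2 fold change 1.03, SE 0.107, edgeR quasi-likelihood adjusted p 0.000955). Mthfd1, which interconverts the folate one-carbon units, measured 48.1, 45.95, 47.02 and 50.3 CPM in the 4 WT libraries and 71.6, 71.3, 75.7 and 76.7 CPM in the 4 p27null libraries (log2 fold change 0.62, SE 0.0885, edgeR quasi-likelihood adjusted p 0.00321). Phgdh, the first enzyme of serine synthesis, measured 140.5, 153, 188 and 145 CPM in the 4 WT libraries and 238, 217, 252 and 269.5 CPM in the 4 p27null libraries (log2 fold change 0.64, SE 0.115, edgeR quasi-likelihood adjusted p 0.0107). WT and p27null libraries were separate in all 3. Psat1, the next step, measured 26.7 to 36.01 CPM in WT and 40.1 to 73.3 CPM in p27null libraries (log2 fold change 0.99) and the mitochondrial Mthfd1l 14.4 to 16.8 CPM in WT and 19.8 to 27.2 CPM in p27null libraries (log2 fold change 0.69). Without p27null replicate 3, 3 members of the list were called, and Psat1 and Mthfd1l were lost (edgeR quasi-likelihood adjusted p 0.0545 and 0.0889). Mthfd1l was also lost without WT replicate 4, p27null replicate 1 or p27null replicate 4.

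Of 17 purine and pyrimidine synthesis genes, a list drawn up after values had been seen, 7 rose (41.2%, against 3.32% of all genes) and none fell (median 0.40). Umps, which completes uridine monophosphate, measured 133, 109.8, 107 and 97.04 CPM in the 4 WT libraries and 169.6, 167, 198 and 218 CPM in the 4 p27null libraries (log2 fold change 0.75, SE 0.125, edgeR quasi-likelihood adjusted p 0.00745). Gmps, the guanosine monophosphate synthetase, measured 187, 191, 179 and 172 CPM in the 4 WT libraries and 248, 251, 271 and 295 CPM in the 4 p27null libraries (log2 fold change 0.55, SE 0.0913, edgeR quasi-likelihood adjusted p 0.00769). Both were higher in every p27null library than in any WT library. Nuclear pore genes, another list chosen after values were seen, rose in 9 of 26 cases (34.6%), among them the membrane nucleoporin Ndc1 (43.9 to 53.5 CPM in WT and 87.01 to 101 CPM in p27null libraries, log2 fold change 0.90) and the central channel protein Nup62 (76.2 to 91.4 CPM in WT and 124 to 151 CPM in p27null libraries, log2 fold change 0.75). Tubulin and hnRNP genes were also listed after values had been seen. Of 16 tubulin genes 6 rose (37.5%), including Tubb3 (1.43 to 2.34 CPM in WT and 2.90 to 6.04 CPM in p27null libraries), and of 20 hnRNP genes 4 rose (20%), including Hnrnpm (254 to 302 CPM in WT and 374 to 443 CPM in p27null libraries), and none of either list fell. Of the hnRNP genes, 8 had a log2 fold change below 0 (list median 0.07). Without p27null replicate 3 or without p27null replicate 4, 3 nucleotide synthesis genes, 3 nuclear pore genes, 3 tubulin genes and 1 hnRNP gene were called. Tubb3 was lost without any library other than p27null replicate 1. In the fit blocked on replicate number, 2 hnRNP genes were called. Without WT replicate 2, 12 nucleotide synthesis genes were called, and nuclear pore calls numbered 4 without WT replicate 3, 3 without WT replicate 4 and 4 without p27null replicate 2. For hnRNP genes the calls numbered 1 without WT replicate 3, 2 without WT replicate 4 and 1 without p27null replicate 1. None of 77 ribosomal protein genes and none of 36 Nduf subunit genes of respiratory complex I was called by edgeR, against 4.99% of all genes. Their medians were 0.01 and 0.02. At an unadjusted p under 0.05 there were 6 and 1, against 22.1% of all genes. DESeq2 called 0 and 1, and limma-voom 3 and 1.

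**Figure D3:**
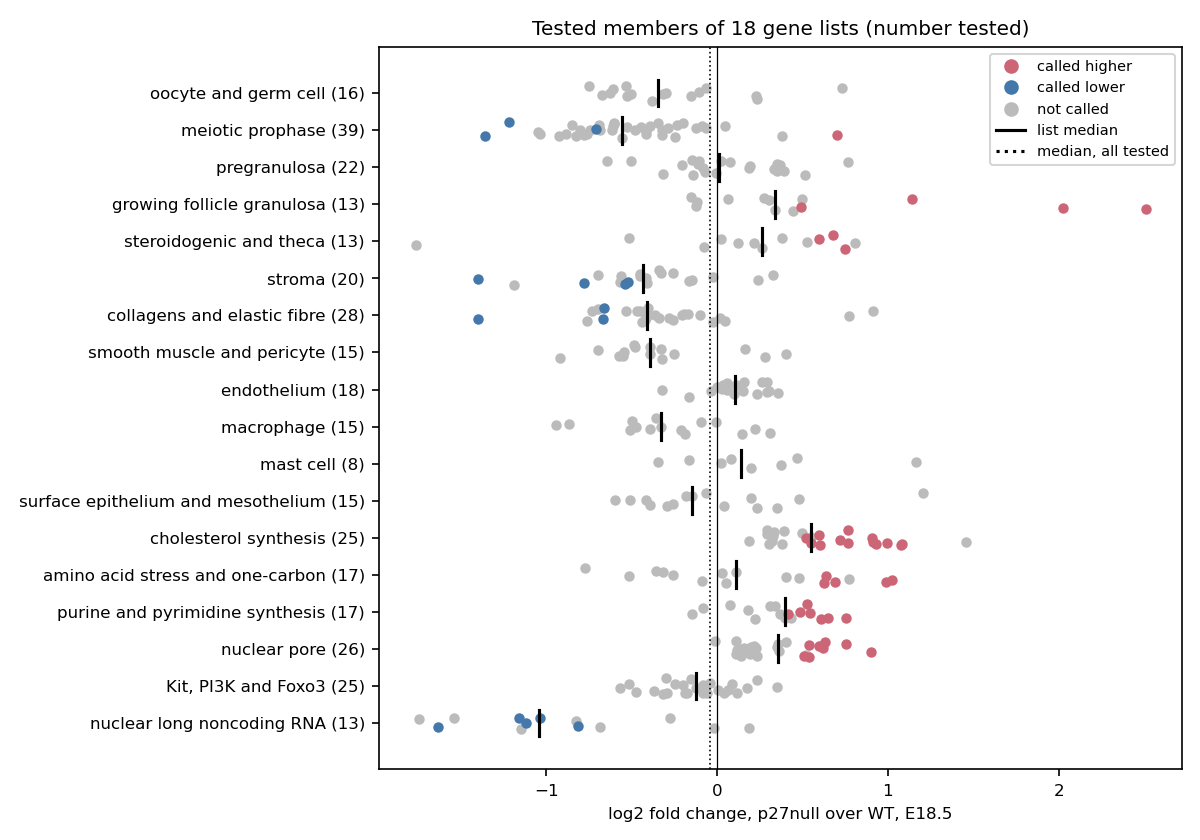
Log2 fold changes of the tested members of 18 lists, each point 1 gene, coloured by whether it was called, with the list median as a bar and the median of all genes as a dotted line. Called members of the metabolic, nuclear pore and granulosa lists lie at the right, those of the stroma, collagen and long noncoding lists at the left, and the pregranulosa and Kit lists hold none.

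Several stromal and matrix genes were lower in p27null ovaries. Of 20 tested stroma genes 4 fell (20.0%, against 1.67% of all genes) and none rose, and 18 of the 20 log2 fold changes were below 0 (median -0.43). Mfap5, a microfibril protein, measured 19.1, 29.4, 17.6 and 32.9 CPM in the 4 WT libraries and 6.42, 14.1, 7.81 and 9.20 CPM in the 4 p27null libraries (log2 fold change -1.40, SE 0.277, edgeR quasi-likelihood adjusted p 0.0176). Nr2f2, the orphan receptor COUP-TFII of interstitial progenitors, measured 134, 158, 114 and 162 CPM in the 4 WT libraries and 109, 104, 85.6 and 97.9 CPM in the 4 p27null libraries (log2 fold change -0.52, SE 0.129, edgeR quasi-likelihood adjusted p 0.0436). These groups did not overlap. Osr1, a mesenchymal zinc finger gene, was at 28.9 to 38.1 CPM in WT and 18.8 to 23.1 CPM in p27null libraries (log2 fold change -0.54). Tcf21, a mesenchymal bHLH factor, measured 46.6, 26.2, 45.2 and 54.05 CPM in the 4 WT libraries and 23.99, 28.3, 22.03 and 26.04 CPM in the 4 p27null libraries (log2 fold change -0.78, SE 0.195, edgeR quasi-likelihood adjusted p 0.0456), and WT replicate 2 lay among the p27null libraries. The more abundant stromal markers were not called. Pdgfra measured 121 to 294 CPM in WT and 119.9 to 194 CPM in p27null libraries (adjusted p 0.223) and the proteoglycan gene Dcn 598 to 793 CPM in WT and 358 to 959 CPM in p27null libraries (edgeR quasi-likelihood adjusted p 0.539), and p27null replicate 1 was the highest of all 8 libraries for Dcn. Without that library Dcn was called lower (adjusted p 0.0161), and Pdgfra was called lower without WT replicate 2 (adjusted p 0.026).

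The stromal calls were near the threshold. DESeq2 called 7 genes of the stroma list lower and limma-voom 8, and 2 were called with all 29 samples in 1 fit. No member of the list was called without WT replicate 4, p27null replicate 3 or p27null replicate 4, 1 was called without p27null replicate 2, 2 without WT replicate 3, and 7 without WT replicate 2. In the fit blocked on replicate number Tcf21 was not called (edgeR quasi-likelihood adjusted p 0.0698). Of 37 collagen genes 5 fell (13.5%) and none rose, and 31 log2 fold changes were below 0 (median -0.42). Col6a5 measured 14.8, 14.5, 13.5 and 20.6 CPM in the 4 WT libraries and 4.14, 6.25, 4.90 and 5.39 CPM in the 4 p27null libraries (log2 fold change -1.62, SE 0.201, edgeR quasi-likelihood adjusted p 0.00188). Col6a3 measured 103, 113, 107 and 145 CPM in the 4 WT libraries and 77.7, 73.4, 71.6 and 72.7 CPM in the 4 p27null libraries (log2 fold change -0.66, SE 0.118, edgeR quasi-likelihood adjusted p 0.0105). The groups were separate for both, although Col6a3 was not called without p27null replicate 3 (adjusted p 0.0533). Col5a1, of a minor fibrillar collagen, was at 62.03 to 95.2 CPM in WT and 40.7 to 54.8 CPM in p27null libraries (log2 fold change -0.67), and Col1a1, of the major one, at 937 to 2231 CPM in WT and 957 to 1568 CPM in p27null libraries (log2 fold change -0.41, edgeR quasi-likelihood adjusted p 0.357). Of the 37 collagen genes, 11 were called in the fit blocked on replicate number, 12 without WT replicate 2, 3 without p27null replicate 2, 2 without WT replicate 3, WT replicate 4 or p27null replicate 4, and 1 without p27null replicate 3. Of 28 collagen and elastic fibre genes 3 were called lower (10.7%, against 1.67% of all genes), and 7 were called with the replicate block. The 3 were Col5a1, Col6a3 and Mfap5, each already counted above. Leaving out single libraries gave 0 to 8 calls in that list, with 0 without p27null replicate 3, 1 without WT replicate 4 or p27null replicate 4, 5 without p27null replicate 1, 6 without WT replicate 1 and 8 without WT replicate 2.

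Signalling and patterning families gave few calls. Rbp4, the carrier of retinol, measured 26.4, 23.9, 34.6 and 37.7 CPM in the 4 WT libraries and 14.3, 13.4, 14.4 and 14.9 CPM in the 4 p27null libraries (log2 fold change -1.11, SE 0.161, edgeR quasi-likelihood adjusted p 0.00367). Hoxd9 measured 32.4, 30.6, 38.3 and 46.6 CPM in the 4 WT libraries and 20.6, 17.04, 17.4 and 20.8 CPM in the 4 p27null libraries (log2 fold change -0.96, SE 0.154, edgeR quasi-likelihood adjusted p 0.00577). Both had separate groups and were called in all 8 fits that left out a library. Among 26 tested Hox genes the 3 that fell (11.5%, against 1.67% of all genes) were neighbours in the HoxD cluster, Hoxd8 (24.8 to 33.01 CPM in WT and 17.7 to 22.7 CPM in p27null libraries), Hoxd9 and Hoxd10 (25.3 to 42.6 CPM in WT and 13.9 to 25.1 CPM in p27null libraries). In the same family 12 log2 fold changes were above 0 (median -0.14). Hoxd9 alone of the Hox genes was called without WT replicate 1, WT replicate 4 or any 1 of p27null replicates 1, 2 and 3. Gli2, a transcription factor of Hedgehog signalling, was at 12.6 to 20.9 CPM in WT and 6.82 to 9.74 CPM in p27null libraries (log2 fold change -0.93), and the Hedgehog target Gli1 at 1.70 to 6.02 CPM in WT and 0.341 to 2.60 CPM in p27null libraries (edgeR quasi-likelihood adjusted p 0.152, and 0.0303 with the replicate block). Notch2, the main Notch receptor of pregranulosa cells, was at 49.5 to 80.05 CPM in WT and 29.7 to 40.5 CPM in p27null libraries (log2 fold change -0.82), the ligand Tgfb2 at 130.2 to 186 CPM in WT and 81.5 to 116 CPM in p27null libraries (log2 fold change -0.64) and the T-box gene Tbx2 at 23.5 to 31.4 CPM in WT and 9.67 to 17.5 CPM in p27null libraries (log2 fold change -0.94).

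Each was 1 of few calls in its pathway: 1 of 21 Notch genes (4.76%), 1 of 12 Hedgehog genes (8.33%) and 0 of 38 Wnt genes were called by edgeR, against 4.99% of all genes, so that 1 call in these lists lies near the background. Of the Wnt genes, 12 had an unadjusted p under 0.05, against 22.1% of all genes, and DESeq2 called 5 and limma-voom 3. Igfbp6, which binds insulin-like growth factor 2, was at 28.3 to 46.1 CPM in WT and 21.5 to 26.3 CPM in p27null libraries and lost its call with the replicate block (edgeR quasi-likelihood adjusted p 0.0508). Bmp4 moved the other way, with 3.88, 4.01, 3.39 and 3.77 CPM in the 4 WT libraries and 11.8, 7.61, 7.08 and 6.33 CPM in the 4 p27null libraries (log2 fold change 1.12, SE 0.234, edgeR quasi-likelihood adjusted p 0.0208), and without overlap. It was the only one of 25 bone morphogenetic protein pathway genes called (4%, near the 3.32% of all genes called higher). It was not called without WT replicates 3 or 4 or p27null replicates 1 or 3 (edgeR quasi-likelihood adjusted p 0.0512 to 0.0595). The calls of Notch2, Tgfb2, Tbx2, Gli2 and Igfbp6 were lost in 3 or more of the 8 such fits, and each of the 5 was lost without WT replicate 4 and without p27null replicate 3. Peg3, an imprinted gene expressed from the paternal copy, rose (694 to 1081 CPM in WT and 1285 to 1478 CPM in p27null libraries), and Mirg, a maternally expressed noncoding gene, fell (4.92 to 6.72 CPM in WT and 2.08 to 3.43 CPM in p27null libraries), 2 of the 3 calls among 22 imprinted genes. Both were lost without WT replicate 3 or without p27null replicate 2, 3 or 4, Peg3 also without WT replicate 1 or p27null replicate 1, and Mirg also without WT replicate 4. Of the imprinted genes 4.55% rose and 9.09% fell, against 3.32% and 1.67% of all genes.

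Germ cell genes gave few calls in the main comparison. Of 16 tested oocyte and germ cell genes and 17 piRNA pathway genes none was called by edgeR, against 4.99% of all genes. An unadjusted p under 0.05 was found for 2 and 4, against 22.1% of all genes. DESeq2 called 2 and 0, and limma-voom 1 and 0. The lists had medians of -0.35 and -0.41. Leaving out 1 library gave medians of -0.594 to 0.085 for the oocyte list and -0.593 to -0.215 for the piRNA list. Ddx4 measured 49.1, 59.8, 36.7 and 58.5 CPM in the 4 WT libraries and 26.6, 42.3, 36.9 and 26.7 CPM in the 4 p27null libraries (edgeR quasi-likelihood adjusted p 0.0888, and DESeq2 adjusted p 0.0422). Dazl, a germ cell RNA-binding protein, measured 91.2, 222, 85.5 and 169.9 CPM in the 4 WT libraries and 66.5, 144, 102 and 82.1 CPM in the 4 p27null libraries (adjusted p 0.427). The genotypes overlapped for both genes, and in WT replicates 2 and 4 were the highest. Kit, the receptor on oocytes, was at 73.6 to 100.1 CPM in WT and 75.3 to 114 CPM in p27null libraries (log2 fold change 0.24).

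Of 39 meiotic prophase genes 3 fell (7.69%, against 1.67% of all genes) and 1 rose, while 36 of the 39 log2 fold changes were below 0 (median -0.56, against -0.04 over all genes). Rec8, the meiotic cohesin subunit, measured 82.7, 65.6, 97.6 and 68.3 CPM in the 4 WT libraries and 34.6, 25.2, 31.98 and 30.5 CPM in the 4 p27null libraries (log2 fold change -1.36, SE 0.149, edgeR quasi-likelihood adjusted p 0.00105). Rec8 was called in every fit that left out a library, and its groups did not overlap. Six6os1, listed in the files as 4930447C04Rik and a component of the synaptonemal complex, measured 85.96, 59.8, 78.6 and 123 CPM in the 4 WT libraries and 40.5, 47.2, 30.9 and 30.9 CPM in the 4 p27null libraries (log2 fold change -1.22, SE 0.218, edgeR quasi-likelihood adjusted p 0.0122). Trip13, an ATPase that remodels meiotic and spindle checkpoint proteins and is also used in mitosis, measured 43.6, 34.9, 34.4 and 29.2 CPM in the 4 WT libraries and 64.3, 49.98, 57.98 and 58.6 CPM in the 4 p27null libraries (log2 fold change 0.70, SE 0.136, edgeR quasi-likelihood adjusted p 0.0154). Hfm1, a crossover helicase, was at 25.6 to 38.4 CPM in WT and 14.6 to 24.2 CPM in p27null libraries (log2 fold change -0.71). Sycp1, Sycp2 and Sycp3, of the same complex, were not called in the main comparison, although DESeq2 called Sycp2 lower (DESeq2 adjusted p 0.00775). Sycp3 measured 300.3, 639.6, 257 and 519 CPM in the 4 WT libraries and 199.7, 390.4, 239.5 and 169 CPM in the 4 p27null libraries (log2 fold change -0.78, SE 0.358, edgeR quasi-likelihood adjusted p 0.247), and the axis gene Sycp2 was at 32.4 to 84.4 CPM in WT and 18.9 to 32.4 CPM in p27null libraries (adjusted p 0.0937).

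In the fit blocked on replicate number, 8 meiotic genes were called lower, but not Hfm1 (edgeR quasi-likelihood adjusted p 0.0516) or Six6os1 (adjusted p 0.0547). DESeq2 called 13 meiotic genes lower and limma-voom 9, and edgeR called 6 lower with no filter on low counts. With all 29 samples in 1 fit, 1 was called lower. Without p27null replicate 3, Rec8 was the only meiotic gene called, and Trip13 was also lost without p27null replicate 4 (adjusted p 0.0562). Hfm1 was lost without any library other than WT replicate 2, and 2 meiotic genes were called higher without that library. The summed meiotic level was 1544 to 2770.0 CPM in WT and 1127 to 1896 CPM in p27null libraries and followed the split between replicates in WT, where replicates 2 and 4 were the 2 highest. With a term for replicates 1 and 3 against 2 and 4, 8 meiotic genes were called lower, and replicates 1 and 3 alone or 2 and 4 alone gave 1 each.

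**Figure D4:**
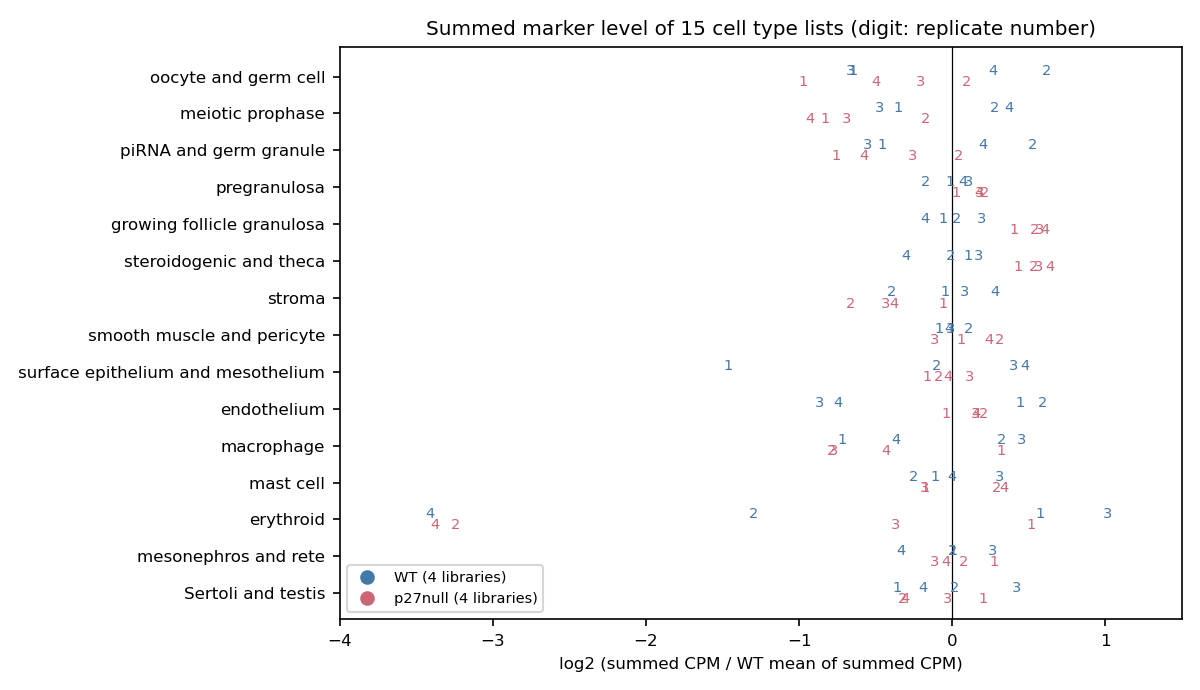
Summed CPM of each of 15 cell type lists in each library, as the log2 ratio to the WT mean, with the replicate number as the symbol and WT above p27null in each row. The growing follicle and steroidogenic sums are higher in all p27null libraries than in any WT library, while the germ cell, endothelial and erythroid sums spread within genotypes.

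Markers of several other cell types in the ovary gave no call by edgeR. None of 18 endothelial, 15 macrophage, 8 mast cell, 15 smooth muscle and pericyte, 15 surface epithelium and mesothelium, 11 erythroid, 6 mesonephros and 5 Sertoli and testis genes passed the test. Over all genes tested 4.99% were called, a share at which lists this short hold few calls or none. At an unadjusted p under 0.05 there were 6 smooth muscle genes and 1 Sertoli gene, and 0 in the other 6 lists. Over all genes that share was 22.1%. DESeq2 called 4 smooth muscle genes, and limma-voom called 5 of them, 1 surface epithelium gene and 1 Sertoli gene. The spread within genotypes was wide in several lists. The endothelial cadherin Cdh5 measured 51.98, 67.4, 13.5 and 14.2 CPM in the 4 WT libraries and 32.7, 43.3, 42.8 and 45.3 CPM in the 4 p27null libraries and the epithelial gene Upk3b 60.1, 218, 406 and 496 CPM in the 4 WT libraries and 200.1, 199, 336 and 251 CPM in the 4 p27null libraries. WT replicates 3 and 4 were low for Cdh5, and WT replicate 1 was low for Upk3b. Mast cell protease genes were abundant and their groups overlapped, with Cpa3 at 495 to 642 CPM in WT and 534 to 743 CPM in p27null libraries and Cma1 at 426 to 614 CPM in WT and 421 to 675 CPM in p27null libraries. The endothelial genes Pecam1 (17.9 to 69.3 CPM in WT and 36.6 to 54.1 CPM in p27null libraries) and Kdr (66.9 to 89.9 CPM in WT and 69.8 to 102 CPM in p27null libraries), the macrophage gene Adgre1 (7.83 to 16.6 CPM in WT and 5.11 to 16.7 CPM in p27null libraries), the epithelial keratin Krt19 (64.1 to 323 CPM in WT and 169 to 237 CPM in p27null libraries) and the globin Hbb-bs (478 to 10690.0 CPM in WT and 516 to 8432 CPM in p27null libraries) overlapped as well. Among 20 immediate early and heat shock genes, which can rise when tissue is dissociated, 0 were called by edgeR (2 at an unadjusted p under 0.05, 1 by DESeq2 and 0 by limma-voom), and among 28 interferon response genes 0 (3 at an unadjusted p under 0.05, 2 by DESeq2 and 2 by limma-voom).

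Of 22 p53 target genes, Phlda3 (82.8 to 93.8 CPM in WT and 60.5 to 76.6 CPM in p27null libraries) and Trp53inp1 (31.6 to 40.99 CPM in WT and 24.5 to 28.2 CPM in p27null libraries) fell, and Ckap2, a spindle protein that is also counted among mitotic genes, rose (21.7 to 30.3 CPM in WT and 46.96 to 63.97 CPM in p27null libraries). The falls made up 9.09% of the list and the rise 4.55%, against 1.67% and 3.32% of all genes. With the replicate block 5 p53 target genes were called lower. Both falls were lost without WT replicate 3 or 4 or p27null replicate 2, 3 or 4, 4 genes were called lower without WT replicate 2, and 1 without WT replicate 1.

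Among long noncoding RNAs more genes fell than rose. Tested genes of the long noncoding annotation types (lincRNA, antisense, processed transcript and similar types) numbered 1413, of which 44 fell (3.11%) and 5 rose (0.354%). Among 14303 protein-coding genes 220 fell (1.54%) and 528 rose (3.69%). These transcripts took 1.23% to 1.48% of the counts in WT and 0.911% to 1.02% in p27null libraries, without overlap. Malat1, an abundant RNA of nuclear speckles, measured 3519, 3458, 2384 and 3241 CPM in the 4 WT libraries and 954, 1788, 1304 and 1605 CPM in the 4 p27null libraries (log2 fold change -1.16, SE 0.194, edgeR quasi-likelihood adjusted p 0.00795). The groups did not overlap. Neat1, the scaffold of paraspeckles, was at 2.26 to 5.43 CPM in WT and 0.681 to 1.57 CPM in p27null libraries (log2 fold change -1.63). Xist, which coats the inactive X chromosome, measured 56.7, 35.7, 56.1 and 59.2 CPM in the 4 WT libraries and 26.3, 29.2, 32.1 and 30.5 CPM in the 4 p27null libraries (log2 fold change -0.82, SE 0.158, edgeR quasi-likelihood adjusted p 0.0155). Tsix, its antisense partner, was at 13.4 to 17.1 CPM in WT and 7.27 to 8.01 CPM in p27null libraries, and the strand setting of the counts is not given in the sources used here, so that reads of this pair cannot be told apart. Meg3, a maternally expressed RNA, measured 268, 63.7, 186 and 161 CPM in the 4 WT libraries and 82.8, 41.97, 41.1 and 36.6 CPM in the 4 p27null libraries (edgeR quasi-likelihood adjusted p 0.0756, and 0.0344 with the replicate block).

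Of the 13 tested members of a list of nuclear long noncoding RNAs drawn up after values were seen, 5 fell (38.5%, against 1.67% of all genes) and none rose, 8 fell with the replicate block, and 0 were called with all 29 samples in 1 fit. Leaving out single libraries gave 9 calls without WT replicate 2, 3 without WT replicate 3, p27null replicate 2 or p27null replicate 3, and 2 without WT replicate 4 or p27null replicate 4. Xist was among those lost without WT replicate 4 or p27null replicate 4 (edgeR quasi-likelihood adjusted p 0.0545 and 0.0531). Splicing regulators that are themselves tied to nuclear speckles formed another list drawn up after values were seen. Of its 17 genes 3 fell (17.6%, against 1.67% of all genes), namely Srsf2, Luc7l3 and Arglu1. Another 8 of the 17 had a log2 fold change above 0 (list median -0.03). Srsf2 measured 331, 202, 252 and 203 CPM in the 4 WT libraries and 147, 149.5, 145 and 112 CPM in the 4 p27null libraries (log2 fold change -0.83, SE 0.164, edgeR quasi-likelihood adjusted p 0.0169). Luc7l3 was at 113 to 198 CPM in WT and 96.6 to 110.4 CPM in p27null libraries and Arglu1 at 58.5 to 72.6 CPM in WT and 40.6 to 48.3 CPM in p27null libraries, and none of the 3 groups of values overlapped between genotypes. No gene of this list was called without p27null replicate 3, and 1 was called without any 1 of p27null replicates 1, 2 and 4. The mitochondrial share of counts, a measure that moves with RNA quality, was 1.67% to 3.77% in WT and 0.506% to 2.42% in p27null libraries, with overlap. Its part in the noncoding RNA differences was not tested.

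The genotype effect at E18.5 was set against the effect at E13.5 and at PND8, using 4 WT and 3 p27null samples at each. The E18.5 effect differed from that at E13.5 for 133 of 20359 genes (0.653%), with 111 differences positive and 22 negative, and from that at PND8 for 67 genes (0.329%), with 60 positive (0.295%) and 7 negative. At an unadjusted p under 0.05 the shares were 11.4% and 8.74%. The targeted gene was itself among the 7: the log2 fold change of Cdkn1b was -2.38 at E13.5 and -1.06 at PND8, against -3.06 at E18.5. Its effect at E18.5 differed from that at PND8 by -2.00 (edgeR quasi-likelihood adjusted p 0.00161) and from that at E13.5 by -0.70 (adjusted p 0.361). Cdkn1b had a mean of 134.5 CPM in WT and 64.4 CPM in p27null samples of PND8. Whether the Cdkn1b reads left in those p27null samples bear on the other differences from PND8 was not tested. Of division cycle genes, Cdc20, Prc1, Racgap1 and Ckap2 differed from both ages. Outside it, Slfn9 differed from E13.5 by 1.73, SE 0.266, edgeR quasi-likelihood adjusted p 0.00373 and from PND8 by 1.52, SE 0.261, edgeR quasi-likelihood adjusted p 0.0191. Its log2 fold changes were 0.22 at E13.5 and 0.44 at PND8. Shmt1 differed from E13.5 by 0.90, SE 0.172, edgeR quasi-likelihood adjusted p 0.0132 and from PND8 by 0.95, SE 0.171, edgeR quasi-likelihood adjusted p 0.0194. Mthfd1 differed from the effect at E13.5 by 0.63, SE 0.132, edgeR quasi-likelihood adjusted p 0.0221 and from that at PND8 by 0.63, SE 0.132, edgeR quasi-likelihood adjusted p 0.0333. The log2 fold changes of Shmt1 were 0.10 at E13.5 and 0.08 at PND8.

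Tnni3 differed from PND8 by 1.74, SE 0.357, edgeR quasi-likelihood adjusted p 0.0304, and from E13.5 with an adjusted p of 0.0696. The cholesterol genes had small fold changes at the other ages, Fdps 0.05 at E13.5 and 0.31 at PND8, Sqle 0.02 at E13.5 and 0.11 at PND8 and Cyp51 0.12 at E13.5 and 0.15 at PND8, but the difference from E18.5 was not called for any of them (edgeR quasi-likelihood adjusted p 0.273 to 0.604). Rec8 had log2 fold changes of 0.48 at E13.5 and -1.70 at PND8, Malat1 of -1.71 at E13.5 and 0.06 at PND8 and Hoxd9 of 0.05 at E13.5 and -1.23 at PND8, and none of these 3 differed from E18.5 beyond the test's threshold. The count of differences from PND8 fell to 5 in the fit blocked on replicate number. Of 14 genes examined one by one that differed from PND8, Cdkn1b, Cdc20 and Cdc6 were still called with the block, and Slfn9, Shmt1, Mthfd1 and Tnni3 were not (edgeR quasi-likelihood adjusted p 0.0942, 0.0837, 0.136 and 0.0902), nor were Prc1, Racgap1 and Ckap2 (0.0902, 0.0902 and 0.13). Of 16 that differed from E13.5, 11 were still called, Slfn9 and Shmt1 among them, and Mthfd1 was not (adjusted p 0.0602). The count of differences from PND8 was 2 without any 1 of WT replicate 4, p27null replicate 3 and p27null replicate 4 of E18.5 or WT replicate 3 and p27null replicate 3 of PND8. It was 3 without WT replicate 2 or p27null replicate 4 of PND8, 18 without p27null replicate 1 of PND8, 28 and 35 without WT replicates 3 and 2 of E18.5, and 112 without WT replicate 1 of E18.5. The count of differences from E13.5 was 42 to 78 without p27null replicates 3 or 4 or WT replicate 4 of E18.5, or p27null replicates 3 or 4 or WT replicate 1 of E13.5. It was 83 without WT replicate 3 of E18.5, 88 without WT replicate 4 of E13.5 and 206 without WT replicate 3 of E13.5.

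**Figure D5:**
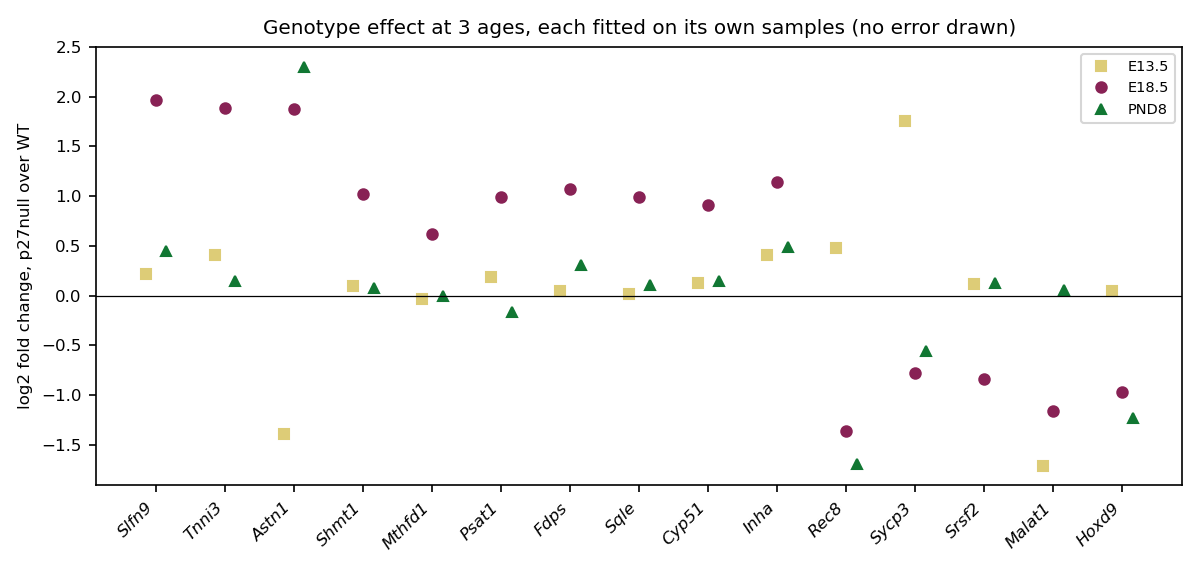
Log2 fold change of p27null over WT for 15 genes at E13.5, E18.5 and PND8, each age fitted on its own samples, without error drawn. Slfn9, Tnni3, Shmt1, Mthfd1, Psat1 and the 3 cholesterol genes stand between 0.62 and 1.97 at E18.5 and have smaller values at the other ages.

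The E18.5 calls were also read against the course of normal development. Between E13.5 and PND8, 12752 of 17225 genes changed in WT ovaries (74%, and 75.9% at an unadjusted p under 0.05), 6495 rising and 6257 falling. Of the genes that are higher at E13.5 in WT, 4.70% were higher and 1.01% lower in p27null ovaries at E18.5. Of the genes that are higher at PND8, 2.35% were higher and 2.54% lower. Genes not called between the ages gave 3.28% higher and 1.18% lower, and the 812 not tested between them 0.369% and 2.59%. Without the lists of the division cycle the shares were 3.87% and 1.03% in the first class and 2.18% and 2.56% in the second. They were then 2.86% and 1.19% among genes not called between the ages. Among genes named above, Sqle averaged 193 CPM in WT ovaries at E13.5 and 65.9 CPM at PND8, and Fdps 196 and 70.2 CPM. Hsd3b1 averaged 17.4 CPM at E13.5 and 1042 CPM at PND8, and Inha 1195 CPM at PND8.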

How the data were processed

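Bulk RNA of 29 ovary samples was sequenced, and the 8 samples of E18.5 were compared here. The authors deposited 1 table of expected counts per gene, made with Trim Galore, STAR 2.5.2 and RSEM 1.3.0 and checked with FastQC 0.11.5, per the submitters' processing notes. Genome build, annotation release and strand setting are not given in the sources used here. RSEM divides reads among similar genes, so near-identical families are uncertain, and non-whole numbers made up 31.4% of nonzero entries. There were 51912 gene IDs (15157 without any count, 51633 with a symbol), and gene positions were read from GENCODE M21 on GRCm38.

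Counts were rounded and tested with edgeR 4.0.16 in R 4.3.3 (TMM scaling, filterByExpr with a minimum count of 10 and a total of 15, robust quasi-likelihood fit, no covariate, Benjamini-Hochberg adjustment). The contrasts between ages came from 1 fit. DESeq2 1.42.0, limma-voom (limma 3.58.1), RLE size factors, no filter, all 29 samples in 1 fit, a block on replicate number, and the omission of single libraries in turn were alternatives. A term for replicates 1 and 3 against 2 and 4, and either pair of replicates alone, were added after seeing the data. The scripts were tested on simulated data.

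Same-numbered WT and p27null libraries deviated together, with correlations of 0.241, 0.334, 0.311 and 0.117, each above 0.1. The main comparison did not treat the numbers as pairs, and the fit blocked on replicate number was an alternative. Different numbers within replicates 1 and 3 or within 2 and 4 also gave 0.165 to 0.376, and the other combinations -0.419 to -0.103. These correlations therefore do not show that a shared number marks a pair. The labels do not say what a number marks.

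The members and lists were chosen with earlier results of these data known, and 8 lists were added after values had been seen. Of 744 list members 743 were matched. The genes named were Cdkn1b, up to 12 called genes per direction with the largest fold change (mean of at least 2 CPM in the higher group, groups that do not overlap), the first 3 markers of each cell type list, up to 4 called genes per list or family and direction with the smallest p, and 4 per contrast between ages. Not all of them are printed, and some items are not reported here. Crebl2, Ccnd2, Kitl, Mybpc3, Hmgcs1, Idi1, Msmo1, Srebf2, Umps, Gli1, Malat1, Xist, Meg3, Srsf2, Luc7l3, Arglu1, Nup62, Ndc1, Gmps, Cdh16, Spp1, Mthfd1l, Dhcr7, Acat2, Stard4, Tsix, Hnrnpm and Col1a1 were chosen after their values were seen. Promoter sequences were matched by symbol for 11756 tested genes.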

Additional observations from a re-analysis of the deposited data

Results flagged for a closer look

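In 17 of 322 groups of 4 libraries examined, 1 library stood far from the other 3, and chance gives about 1 in 20. In WT replicate 1, Cdkn1b was at 135.8 CPM, Ccnd2 at 793.2 CPM and Astn1 at 3.77 CPM. WT replicate 2 stood apart in Ndc1 (43.86 CPM) and in the summed immediate early and heat shock genes (2162 CPM), WT replicate 3 in Hoxd8 (24.75 CPM) and Cdh16 (1.775 CPM), and WT replicate 4 in Tbx2 (31.41 CPM). In p27null replicate 1, Dcn was at 959.4 CPM, Meg3 at 82.78 CPM, Cdh16 at 22.45 CPM and Spp1 at 100.6 CPM. In p27null replicate 2, Osr1 was at 18.8 CPM and Mthfd1l at 19.76 CPM. In p27null replicate 4, Srsf2 was at 112.2 CPM, Ajap1 at 2.092 CPM and the summed class I and presentation genes at 712.1 CPM.

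The log2 genotype effect at E18.5 differed from that at another age in 30 tests of single genes (edgeR quasi-likelihood adjusted p 0.00161 to 0.0479). With the replicate block, 11 of 16 tests against E13.5 and 3 of 14 against PND8 (Cdkn1b, Cdc20 and Cdc6) were still past the threshold. Against both E13.5 and PND8, in that order, the differences were 1.73 and 1.52 for Slfn9, 0.904 and 0.946 for Shmt1, 0.633 and 0.625 for Mthfd1, and 0.586 and 0.755 for Nup62. Among division cycle genes they were 1.78 and 1.67 for Cdc6, 1.55 and 1.54 for Cdc20, 1.45 and 1.21 for Prc1, 1.39 and 1.31 for Racgap1, 1.23 and 0.949 for Ckap2, 1.18 and 1.11 for Exo1, and 1.31 and 1.22 for Cep55. Against E13.5 alone they were -1.69 for Crebl2, -0.976 for Srsf2, -3.57 for Cma1, 5.51 for Tubb3 and 0.619 for Hnrnpm. Against PND8 alone they were -2.00 for Cdkn1b, 1.74 for Tnni3 and 1.15 for Psat1. The E18.5 effect itself was -0.096 to 0.131 for Cma1 and 1.084 to 1.432 for Tubb3 in the fits that left out 1 library. Most of the difference in these 2 genes therefore lay in the effect at E13.5.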

How the results depend on the processing

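The 814 calls at E18.5 (542 higher, 272 lower) became 1636 with DESeq2 (1011 higher, 625 lower) and 1735 with limma-voom (974 and 761). A term for replicates 1 and 3 against 2 and 4 gave 415 lower. Replicates 1 and 3 alone gave 5 (3 and 2), and replicates 2 and 4 alone 112 (103 and 9). Leaving out 1 library gave 246 to 1372 calls, 205 to 792 higher and 41 to 580 lower. The 133 differences from the E13.5 effect became 415 with DESeq2 (288 higher, 127 lower), and the lower ones 12 with no filter and 13 with the replicate block; leaving out 1 library gave 42 to 206, 33 to 172 higher and 9 to 80 lower. The 67 differences from PND8 became 5 with the replicate block (3 and 2) and 170 with DESeq2 (137 and 33), with 3 lower with no filter; leaving out 1 library gave 2 to 112, 1 to 100 higher and 1 to 12 lower. Fits that left out libraries held fewer samples, and the cause of these shifts was not tested. The wild-type change between ages stayed within 1.5 times under every alternative run.

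List medians changed sign in several lists, among them p53 targets (0.0123) and imprinted genes (0.02) with replicates 1 and 3 alone. They did so for splicing factors with no filter (0.0155), limma-voom (0.0111) and replicates 1 and 3 alone (0.0395), for Hox genes with replicates 1 and 3 alone (0.2), and for solute carriers with no filter (0.0112) and replicates 2 and 4 alone (0.0126). Leaving out 1 library gave medians of -0.059 to 0.0636 for splicing factors, -0.562 to 0.00166 for Hox genes and -0.0622 to 0.00234 for solute carriers. Positive values came without WT replicate 2 or p27null replicate 2, without p27null replicate 3, and without WT replicate 3, in that order. Other lists also had medians on both sides of 0 when 1 library was left out. Among them were oocyte and germ cell (-0.594 to 0.085), surface epithelium (-0.491 to 0.216), endothelium (-0.0876 to 0.468) and pregranulosa genes (-0.0281 to 0.0877). So were immediate early and heat shock (-0.146 to 0.178), ribosomal protein (-0.0784 to 0.179) and Nduf genes (-0.0556 to 0.135). Of the 91 called genes examined one by one, DESeq2 and limma-voom each called 91, and the fit of all 29 samples 53. The replicate block gave 85 and added 3, and beyond the values given beside the results it changed no other call among the 124 genes examined.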
